A study of Homo sapiens with 66 samples.

Results

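The comparison described here sets A375 cells with HDAC3 knocked out against control cells of the same experiment. A375 is an established human melanoma line whose growth is driven by mutant BRAF. The 3 HDAC3 knockout libraries (HDAC3KO) and the 3 control libraries (Ctrl, genotype WT) were chosen by their labels alone and make up 6 of the 66 libraries of the series, whose stated subject is the Mediator complex and the plasticity of melanoma cells. Another 6 libraries of the same experiment serve as a second test of the knockout, 3 with both HDAC3 and MED23 knocked out (dKO) and 3 with MED23, a subunit of the Mediator coactivator, knocked out alone (MED23KO). None of these 12 libraries carries a drug treatment in its label. In the count table the control columns carry the name GFP, which the labels of other experiments of the series use (GFPsg) and those of this experiment do not. They were matched to the control samples as the 1 group left once the other names were assigned, so every value below that is set against control cells rests on that match. The labels do not say which guide was used, whether each line is a clone or a pool, or whether the 3 replicates were separate cultures, and p-values therefore measure only the spread between libraries.

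HDAC3 is the class I histone deacetylase of the NCOR complex, in which the scaffold NCOR1 holds HDAC3 together with TBL1X, TBL1XR1, GPS2 and CORO2A. The corepressor is brought to DNA by unliganded nuclear receptors such as the thyroid hormone and retinoic acid receptors, by the clock repressors NR1D1 and NR1D2, and by BCL6 and other factors, and HDAC3 needs its corepressor for its deacetylase activity. In melanoma cells the factors SOX10 and MITF maintain the neural crest and pigment cell programmes, and low levels of MITF with high EGFR and AXL mark a dedifferentiated state.

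The HDAC3 knockout libraries held 64506059 to 67371952 counts and the control libraries 95166937 to 104851238. The 10 most abundant genes took 5.63 to 5.71% of the counts in HDAC3 knockout libraries and 4.05 to 4.14% in control libraries, and mitochondrial mRNAs took 1.752 to 2.087% in HDAC3 knockout and 1.609 to 2.016% in control libraries. Replicate 1 of HDAC3KO and replicate 1 of Ctrl deviated from their group means in a like way (r = 0.56 across 11681 genes, which are not independent), and the totals that use these libraries were computed again without both. Replicate 1 of MED23KO deviated likewise (r = 0.479 with replicate 1 of Ctrl and 0.4 with replicate 1 of HDAC3KO), and was not left out together with them. The melanoma markers SOX10, S100B and MITF were abundant in every library, whereas TYR and MLANA, which mark pigmented melanocytes, were near the detection limit, with 19 and 184 counts over the 3 HDAC3 knockout libraries and 15 and 255 over the 3 control libraries. Markers of blood, endothelial, keratinocyte and fibroblast cells summed to 28.29 to 31.09 CPM (counts scaled to a library total of 1000000) over 13 genes in HDAC3 knockout libraries and to 22.91 to 24.8 CPM in control libraries, with HBB at 0 counts in both. Of the 9 of these markers that could be tested, 4 rose (PTPRC, PECAM1, KRT5 and LUM) and 2 fell (KRT14 and DCN), or 1 without replicate 2 of HDAC3KO or replicate 3 of Ctrl, and their part in the results was not tested. PTPRC had 73 counts over the HDAC3 knockout libraries and 7 over the control libraries, and KRT5 had 57 over HDAC3 knockout and 37 over control libraries and lost its call without replicate 2 of HDAC3KO, replicate 1 of Ctrl or replicate 3 of Ctrl. How the counting used strand is not given in the sources used here, so counts of genes overlapped by a gene on the other strand may hold reads of both. Among the genes named below these include ALPK2, NGFR, SQSTM1, MCM2, TYMS, DDIT3, LRATD2 and, to a smaller extent, CCND1.

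HDAC3 mRNA was lower by close to 2-fold, and most partners of its complex were lower too, with TBL1XR1 as the exception. HDAC3 (ENSG00000171720, GRCh38 chromosome 5, 141620876 to 141636870) stood at 30.2, 29.8 and 28.7 CPM in HDAC3 knockout libraries, against 58.3, 58.9 and 56.6 CPM in control libraries, where CPM is scaled by the TMM library size here and below. All 3 knockout libraries lay below all 3 controls. The log2 fold change was -0.97 ± 0.05, adjusted p = 4.1e-13, where ± on a log2 fold change is the standard error, here and below. The counts do not show how much of the remaining mRNA can be translated or how much protein remained. Of the 7 genes of the corepressor complex, 5 fell and 1 rose at an adjusted p under 0.05, against 20.9% of all 21139 tested genes that fell and 21.2% that rose. TBL1XR1, an exchange factor and close relative of TBL1X, was at 200.0, 216 and 213 CPM in knockout libraries and 129.6, 134 and 137 CPM in controls (0.65 ± 0.055, adjusted p = 2e-09). TBL1X moved the other way (-0.39 ± 0.043, adjusted p = 1.3e-07), and the scaffold NCOR1 fell slightly (-0.21 ± 0.053). GPS2 was the 1 member that did not pass the test.

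Among 10 other histone deacetylases, 5 rose and 4 fell. The class IIa enzymes, which have little catalytic activity of their own and bind the NCOR-HDAC3 complex, rose in 3 of 4 cases. HDAC9 reached 23.4, 23.2 and 23.7 CPM in HDAC3 knockout libraries, against 12.4, 12.1 and 12.7 CPM in control libraries (0.92 ± 0.068, adjusted p = 2.3e-10). HDAC5 (0.63 ± 0.07) and HDAC4 (0.34 ± 0.062) rose with it, whereas HDAC7 fell (-0.55 ± 0.072). The class I relatives moved by less, with HDAC1 at 0.13 ± 0.038, HDAC8 at 0.24 ± 0.065 and HDAC2 at -0.29 ± 0.043. HDAC10 fell (-0.55 ± 0.20, adjusted p = 0.029), but lost the call without replicate 1 of HDAC3KO (-0.38, adjusted p = 0.16), without replicate 1 of Ctrl (-0.53, adjusted p = 0.073) and without replicate 2 of Ctrl (-0.50, adjusted p = 0.089). KAT2B, the acetyltransferase PCAF, showed the largest change of 12 acetyltransferases and bromodomain proteins, at 225, 208 and 222 CPM in knockout libraries and 56.1, 58.2 and 54.0 CPM in controls (1.96 ± 0.055, adjusted p = 1.5e-17). In that list 2 genes rose and 7 fell, and the lowest log2 fold change was -0.43.

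Genes beside HDAC3 on chromosome 5 went both ways. Of 22 genes within 500.0 kb that had a mean above 2 on the log2 CPM scale, 4 rose and 9 fell, with a median log2 fold change of -0.14. Over all tested genes above that mean, 24.15 to 35.04% rose and 27.78 to 30.18% fell, depending on level. Many of the neighbours that fell were clustered protocadherins, such as PCDHB5 (-0.75), while PCDHB16 rose (0.23). DIAPH1, an actin-nucleating formin whose nearer edge lies 1.82 kb from HDAC3, was at 229 CPM in knockout and 315 CPM in control cells on average (-0.46, adjusted p = 8.9e-08). FCHSD1, 2.43 kb away on the other side, did not pass the test (0.07, adjusted p = 0.63), and neither did ARAP3 (0.01, adjusted p = 0.94).

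HDAC3 knockout moved a large part of the transcriptome, by small amounts for most genes. At an adjusted p under 0.05, 4476 of 21139 genes (21.2%) were higher and 4415 (20.9%) lower in HDAC3 knockout cells than in control cells. With a 2-fold minimum added, 978 (4.63%) were higher and 754 (3.57%) lower. The median log2 fold change over all tested genes was -0.0001, and in 50.3% of them the 3 knockout and the 3 control libraries did not overlap. Above a mean of 6 on the log2 CPM scale, 80 of 3719 genes were 2-fold higher and 19 were 2-fold lower, whereas between 2 and 4 the numbers were 118 and 109 of 3313. Long intergenic RNAs were 2-fold higher in 151 of 1434 cases and lower in 63, against 623 and 581 of 14390 protein-coding genes.

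**Figure D1:**
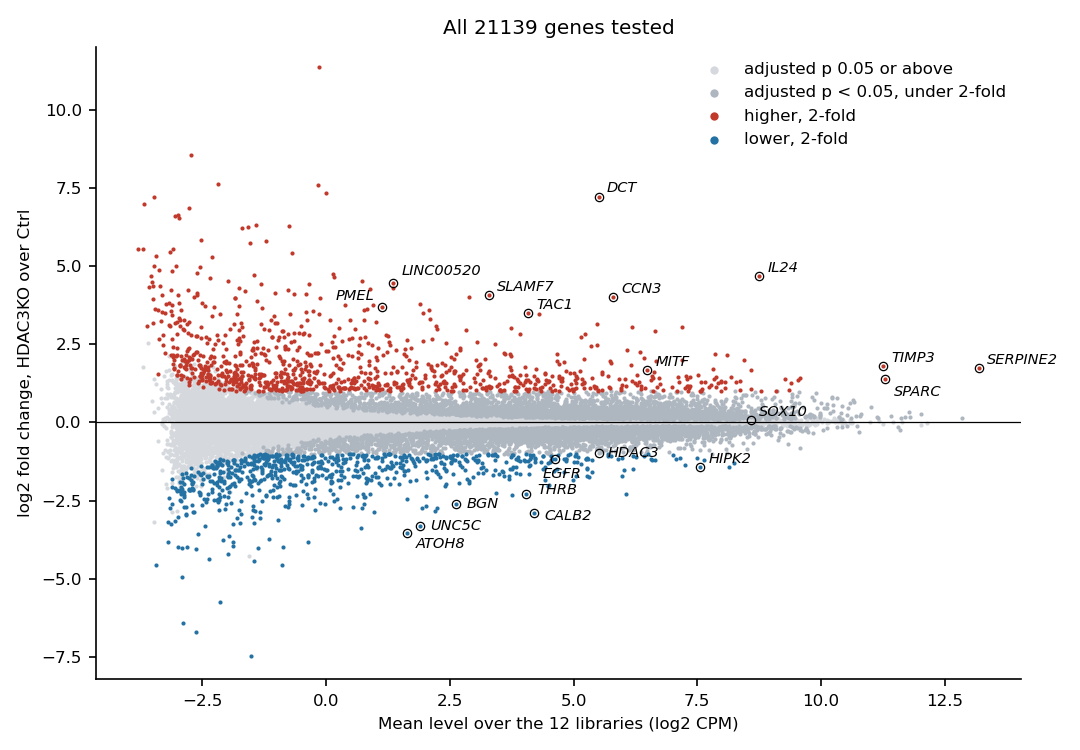
Each point is 1 of the 21139 genes tested, with its mean level over the 12 libraries of the experiment (log2 CPM) on the x axis and its log2 fold change, HDAC3 knockout over control, on the y axis. Red and blue mark genes 2-fold higher (978) and lower (754) at an adjusted p under 0.05. Circles mark 20 of the genes named in the text, with DCT (7.22) and IL24 (4.69) far above other genes of their level.

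The 12 highest log2 fold changes among genes with a mean log2 CPM of at least 1, at least 30 counts in every library of the higher group and no overlap between the groups were led by DCT, encoding the dopachrome tautomerase of melanin synthesis (ENSG00000080166, chromosome 13, 94436808 to 94479682). DCT had 183, 174 and 184 CPM in HDAC3 knockout libraries, against 1.09, 1.54 and 1.01 CPM in control libraries. Its log2 fold change of 7.22 ± 0.12, adjusted p = 2.8e-21 is 149-fold. IL24, a secreted cytokine first described in differentiating melanoma cells (chromosome 1, 206897443 to 206904139), was at 1283, 1362 and 1397 CPM in knockout libraries, against 48.0, 54.5 and 54.7 CPM in controls (4.69 ± 0.057, adjusted p = 6.9e-24). In both genes the lowest knockout library was far above the highest control library.

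Other genes in this group encode proteins of the cell surface and the secretory pathway. They were the serine protease FAP (4.29 ± 0.18), the lymphocyte receptor SLAMF7 (4.07 ± 0.093), the amino acid transporter SLC7A8 (4.01 ± 0.12), the matricellular protein CCN3 (4.00 ± 0.061), the melanosome matrix protein PMEL (3.71 ± 0.17), the ATP-gated channel P2RX7 (3.60 ± 0.14) and the substance P precursor TAC1 (3.49 ± 0.088), with adjusted p-values from 4e-22 to 6.5e-14. LINC00520, a long intergenic RNA, changed by 4.44 ± 0.17, adjusted p = 2.3e-15. INMT, an indolethylamine N-methyltransferase, changed by 3.79 ± 0.20, adjusted p = 6.5e-13. BCL2A1, an anti-apoptotic BCL2 relative and a target of MITF in melanoma, changed by 3.51 ± 0.14, adjusted p = 5.7e-15. CCN3 showed the size of these shifts at a higher level, with 154, 157 and 161 CPM in knockout libraries and 9.13, 10.2 and 10.2 CPM in control libraries.

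The 12 lowest were led by ATOH8, a basic helix-loop-helix factor (chromosome 2, 85751344 to 85788066), with 0.341, 0.373 and 0.329 CPM in HDAC3 knockout libraries and 4.63, 3.57 and 4.00 CPM in control libraries (-3.54 ± 0.16, adjusted p = 6.9e-14). UNC5C, a netrin receptor (-3.31 ± 0.20), and CALB2, the calcium-binding protein calretinin (-2.90 ± 0.086), came next, followed by the kinase ALPK2 (-2.83 ± 0.18). The rest held the laminin receptor subunit ITGB4 (-2.73 ± 0.12), the proteoglycan BGN (-2.59 ± 0.11), the scavenger receptor COLEC12 (-2.45 ± 0.18) and VIT (-2.33 ± 0.19). ARHGDIB, a GDP dissociation inhibitor (-2.74 ± 0.18), EFNB3, an ephrin (-2.68 ± 0.12), and PDZD2 (-2.31 ± 0.079) were among them too, and the adjusted p-values of the 12 ran from 3.4e-17 to 1.2e-09. THRB, the thyroid hormone receptor beta, which binds NCOR in the absence of hormone (chromosome 3, 24117153 to 24495756), was at 2.70, 3.03 and 3.26 CPM in knockout libraries, against 14.4, 15.5 and 14.3 CPM in controls (-2.29 ± 0.079, adjusted p = 4.2e-16). The highest knockout library lay far below the lowest control library.

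Some genes were nearly absent from 1 of the groups, which together held 196431294 counts for HDAC3 knockout and 300311538 for control. They are given as counts over the 3 libraries, without a fold. By a rule chosen after the values were seen (2-fold and adjusted p under 0.05, at least 100 counts in 1 group and at most 10 in the other, a gene symbol), 17 genes were of this kind in the higher direction and 11 in the lower. ABCB5, a transporter known from melanoma and pigment cells, had 835 counts in HDAC3 knockout and 8 in control cells. SPINK1, a secreted trypsin inhibitor, had 758 in HDAC3 knockout and 6 in control cells, and ENTHD1 had 354 in HDAC3 knockout and 10 in control cells. The long intergenic RNA LINC02392 had 777 counts in knockout and 0 in control libraries. In the lower direction STMN2, a neuronal stathmin, had 1 count in HDAC3 knockout and 113 in control cells, the receptor-associated NETO1 had 3 in HDAC3 knockout and 127 in control cells, and ELFN2 had 10 in HDAC3 knockout and 241 in control cells.

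Among genes with at least a 1.5-fold change, the largest gains in CPM were those of SERPINE2 and TIMP3, both secreted. SERPINE2, an inhibitor of thrombin and plasminogen activators, was at 17979.5, 17539 and 17972 CPM in HDAC3 knockout libraries, against 5290.2, 5330.2 and 5258 CPM in controls (1.75 ± 0.032, adjusted p = 6.2e-21). TIMP3, a matrix-bound inhibitor of metalloproteinases, was at 6200.3, 5938 and 5971 CPM in knockout libraries and 1747, 1729 and 1704 CPM in controls (1.81 ± 0.034, adjusted p = 1.3e-20). These 2 genes, with SPARC (1.38 ± 0.033), IL24, the MHC class II chaperone CD74 (0.79 ± 0.046) and the endoplasmic reticulum chaperone HSP90B1 (0.71 ± 0.04), were the 6 largest increases in CPM. The 6 largest decreases were the kinase HIPK2 (-1.42 ± 0.05), the chromatin proteins NUCKS1 (-0.83 ± 0.042) and HMGN2 (-0.69 ± 0.047), LRATD2 (-1.42 ± 0.043), the thioredoxin-related TMX4 (-1.29 ± 0.044) and the tubulin-binding STMN1 (-0.86 ± 0.052). HIPK2 averaged 95.1 ± 6.81 CPM in HDAC3 knockout cells and 255 ± 8.46 CPM in control cells (SD, n = 3 each), and all 12 had adjusted p-values of 5e-11 or smaller.

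**Figure D2:**
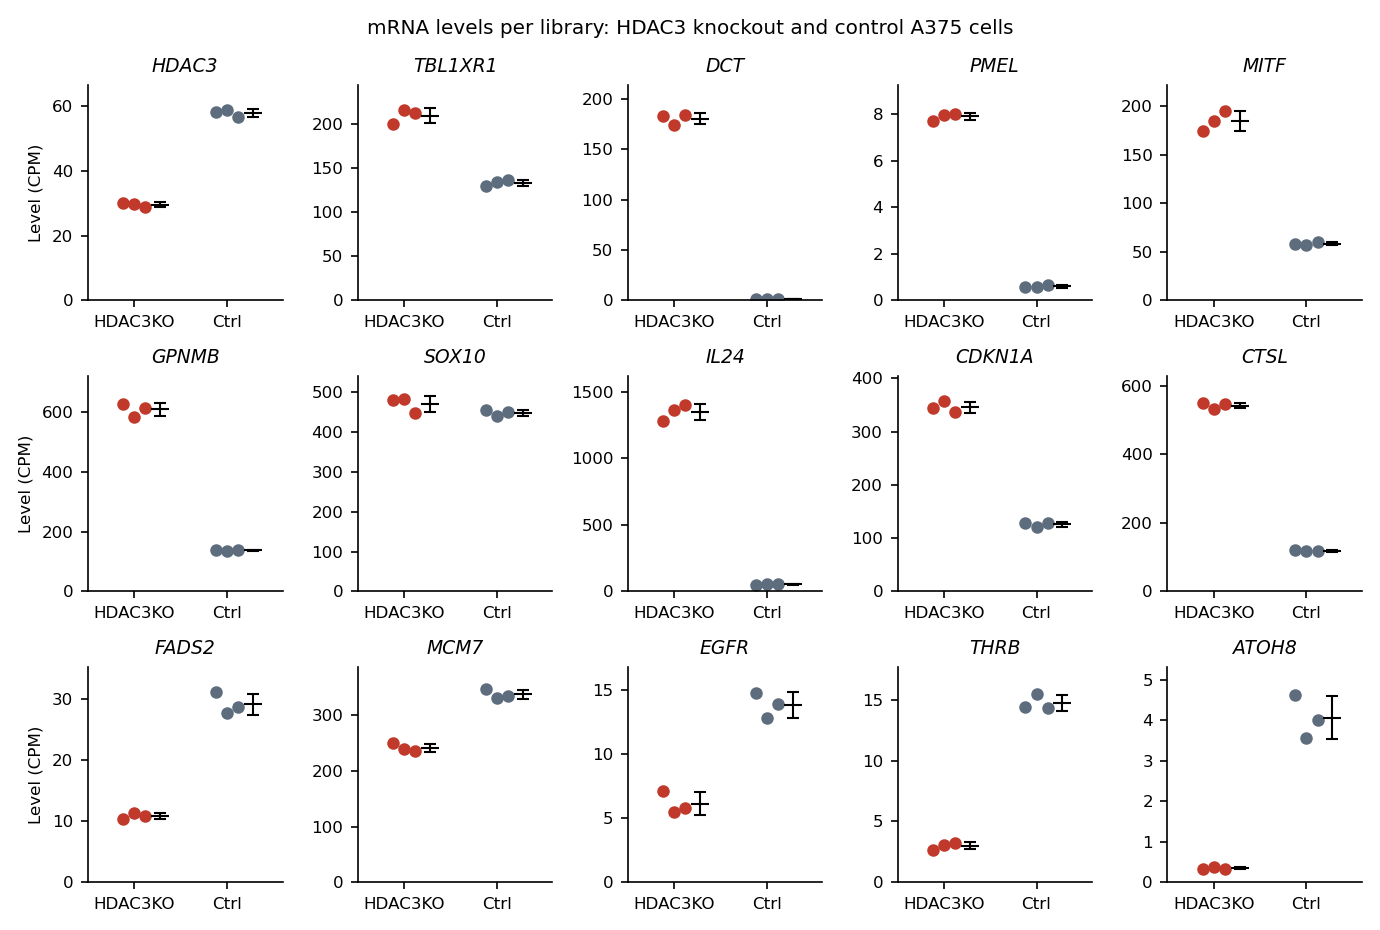
Levels (CPM) of 15 genes in each of the 3 HDAC3 knockout libraries (red, left) and the 3 control libraries (grey, right), with the mean and SD as black bars. SOX10 overlaps between the groups, while DCT, PMEL, MITF, GPNMB, IL24, CDKN1A, CTSL and TBL1XR1 are higher and HDAC3, FADS2, MCM7, EGFR, THRB and ATOH8 lower in every knockout library.

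Genes of the pigment cell programme rose in part. Of 12 melanocytic genes tested, 6 rose and none fell, with a median log2 fold change of 0.97, and 4 further members (TYR, TRPM1, SLC45A2 and SLC24A5) had too few counts to test. MITF, the master factor of the lineage (chromosome 3, 69739435 to 69968337), was at 174, 184 and 195 CPM in HDAC3 knockout libraries, against 58.3, 56.7 and 59.8 CPM in control libraries (1.66 ± 0.054, adjusted p = 1.7e-16). GPNMB, a melanosome and lysosome glycoprotein and a target of MITF and its relatives, was at 628, 583 and 614 CPM in knockout libraries and 138, 137 and 137 CPM in controls (2.15 ± 0.043, adjusted p = 2.8e-20). RAB38, a GTPase of melanosome transport, changed by 1.58 ± 0.061, adjusted p = 3.2e-15, and PMEL by 3.71 ± 0.17, adjusted p = 6.5e-14. CAPN3 rose as well, on 68 counts in HDAC3 knockout and 12 in control cells. MLANA (0.25 ± 0.22, adjusted p = 0.39), TYRP1 (0.35 ± 0.58) and OCA2 (0.37 ± 0.19), further pigment cell genes, did not pass the test. SOX10, which activates MITF and DCT in melanocytes, was at 479.6, 484 and 447 CPM in knockout libraries and 454, 441 and 450.3 CPM in controls (0.07 ± 0.051, adjusted p = 0.31), and its groups overlapped. In bulk libraries like these, more cells with a transcript and more of it per cell cannot be told apart.

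DCT and GPNMB, among the genes that rose, hold the letters of the M-box, the extended E-box that MITF and its relatives TFEB and TFE3 bind, in the 250 bases before an annotated start. They are shown because they were the only genes with a match among the 4 risen pigment cell genes that have a promoter entry. Sequences are from RefSeq (GRCh38.p14), and capitals mark TCATGTG on either strand. The first is before 1 of the 2 starts of DCT given there, at chr13:94479683-94479932 on the minus strand, with matches that begin -215 and -135 bases from the start. The second is before GPNMB, at chr7:23246525-23246774 on the plus strand, with matches at -123 and -62.
DCT: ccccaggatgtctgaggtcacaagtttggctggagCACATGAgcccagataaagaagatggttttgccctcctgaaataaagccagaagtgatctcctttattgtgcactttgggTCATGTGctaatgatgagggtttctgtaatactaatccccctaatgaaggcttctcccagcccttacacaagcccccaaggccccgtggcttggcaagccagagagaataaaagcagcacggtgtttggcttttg
GPNMB: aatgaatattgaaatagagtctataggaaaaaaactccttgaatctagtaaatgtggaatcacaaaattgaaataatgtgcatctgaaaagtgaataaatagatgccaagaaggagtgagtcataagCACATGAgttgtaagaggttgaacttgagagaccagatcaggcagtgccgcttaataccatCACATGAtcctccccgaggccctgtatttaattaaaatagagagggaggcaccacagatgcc
Of 17041 promoters of tested protein-coding genes, read over the same window, 285 (1.67%) hold the motif in this window. Among the 6 risen pigment cell genes, 4 have a promoter in the table, and for MITF and CAPN3, with 3 starts each, these letters are not in the window. Over these 4 genes, 2 of 9 promoters hold the motif. Pigment cell genes that did not rise were not counted apart, so these shares do not tie the motif to rising. A match describes letters only and says nothing of binding in these cells.

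Neural crest genes associated with SOX10 rose more often than they fell, at 8 higher and 2 lower of 16 tested (median 0.60). CDH19, a cadherin of Schwann cell precursors, was at 340.0, 361 and 388 CPM in HDAC3 knockout libraries, against 86.2, 92.9 and 96.5 CPM in controls (1.98 ± 0.061, adjusted p = 7.2e-17). The retinoid receptor RXRG (1.64 ± 0.067, adjusted p = 8.4e-15) and the neurotrophin receptor NGFR (1.49 ± 0.053, adjusted p = 8.4e-16) rose too, as did the calcium-binding S100A1 (1.55 ± 0.064, adjusted p = 8.5e-15) and S100B (1.29 ± 0.072, adjusted p = 1.5e-12). ERBB3, a neuregulin receptor regulated by SOX10, did not pass the test (0.01 ± 0.047, adjusted p = 0.93), and the crest factor TFAP2A fell (-0.32 ± 0.086).

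A list of genes named for the dedifferentiated, invasive state was split, with 7 higher and 6 lower of 15 tested (median -0.04). Its members need not all mark that state, so these counts do not give the direction of the state. EGFR was at 7.15, 5.48 and 5.78 CPM in HDAC3 knockout libraries, against 14.8, 12.8 and 13.9 CPM in control libraries (-1.18 ± 0.10, adjusted p = 1.1e-09). AXL (-0.52 ± 0.045, adjusted p = 2.2e-09), WNT5A (-0.78 ± 0.051) and ZEB1 (-0.56 ± 0.059) fell with it. SOX9, a crest factor that is often opposed to SOX10, fell to 20 counts over the 3 HDAC3 knockout libraries, against 223 over the 3 control libraries. The crest factor SNAI2 (1.38 ± 0.12, adjusted p = 2.9e-09), the matrix protein TNC (0.82 ± 0.045) and ZEB2 (0.67 ± 0.05) rose. Of the ZEB pair, whose balance changes between melanoma states, ZEB2 was higher and ZEB1 lower.

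Receptor tyrosine kinases moved in 1 direction. Of 14 tested, 9 fell and none rose (median -0.48). FGFR3 averaged 1.51 ± 0.11 CPM in HDAC3 knockout cells and 4.41 ± 0.237 CPM in control cells (SD, n = 3 each, -1.54 ± 0.14, adjusted p = 8.2e-09). FGFR1 (-0.74 ± 0.075, adjusted p = 3.7e-08) and PDGFRA (-1.01 ± 0.20, adjusted p = 0.00029) also fell, and IGF1R (-0.43 ± 0.045) fell by less. Targets of YAP and TEAD, factors that respond to cell shape and adhesion, were lower in 13 and higher in 3 of 22 cases (median -0.31). Their classic members CCN1 (-0.52 ± 0.068, adjusted p = 1.7e-06) and CCN2 (-0.48 ± 0.061, adjusted p = 1.1e-06) fell, as did FOXF2 (-1.30 ± 0.14) and CRIM1 (-0.99 ± 0.043), whereas ARHGEF17 (0.81 ± 0.10) and GADD45A (0.70 ± 0.057) rose.

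Lysosome and autophagy genes rose almost throughout. Of 16 tested, 14 rose and 1 fell, with a median of 0.63, against a median near 0 over all genes. CTSL, the lysosomal protease cathepsin L, was at 549, 533 and 545 CPM in HDAC3 knockout libraries, against 121, 117 and 117 CPM in control libraries (2.19 ± 0.041, adjusted p = 9.1e-21). The protease CTSK, a target of MITF in osteoclasts, was at 61.7, 61.3 and 65.7 CPM in knockout libraries and 17.1, 16.1 and 18.0 CPM in controls (1.88 ± 0.064, adjusted p = 3.9e-16). SQSTM1, the autophagy receptor p62, changed by 1.33 ± 0.046, adjusted p = 4.5e-16 and the membrane protein LAMP2 by 1.14 ± 0.049, adjusted p = 2.3e-14. Of the lysosomal regulators in the list, TFE3 fell (-0.35 ± 0.049, adjusted p = 3.6e-06) and TFEB did not pass the test (-0.28 ± 0.24, adjusted p = 0.38).

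The E-box CACGTG is the core of the CLEAR element of lysosomal genes. It lies in the 250 bases before the start in 3 of the 9 risen members that have a promoter entry (LAMP1, CTSD and MCOLN1). Counted by promoter, it is in 3 of their 12, and in 1354 of 17041 promoters (7.95%) of tested protein-coding genes. List members that did not rise were not counted apart, so these shares do not tie the motif to rising. LAMP1, with 5 matches, and MCOLN1, the lysosomal calcium channel, with 2, are shown with the motif in capitals. LAMP1 is at chr13:113296989-113297238 and MCOLN1 at chr19:7522374-7522623, both on the plus strand.
LAMP1: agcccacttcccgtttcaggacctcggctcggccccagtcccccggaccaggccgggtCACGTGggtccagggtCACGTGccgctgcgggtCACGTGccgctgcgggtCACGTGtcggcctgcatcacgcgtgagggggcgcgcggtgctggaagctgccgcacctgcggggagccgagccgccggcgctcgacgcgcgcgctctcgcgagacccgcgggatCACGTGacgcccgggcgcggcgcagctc
MCOLN1: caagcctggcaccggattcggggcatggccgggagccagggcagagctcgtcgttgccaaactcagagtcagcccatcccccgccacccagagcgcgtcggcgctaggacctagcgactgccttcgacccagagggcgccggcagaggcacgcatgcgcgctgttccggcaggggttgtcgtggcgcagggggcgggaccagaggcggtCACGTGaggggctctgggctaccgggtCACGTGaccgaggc
LAMP1 was at 393, 401 and 393 CPM in HDAC3 knockout libraries and 258, 252 and 252 CPM in control libraries (0.64 ± 0.038, adjusted p = 4.2e-12), and MCOLN1 changed by 0.32 ± 0.10, adjusted p = 0.0091. No M-box match lay before any of the 9.

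**Figure D3:**
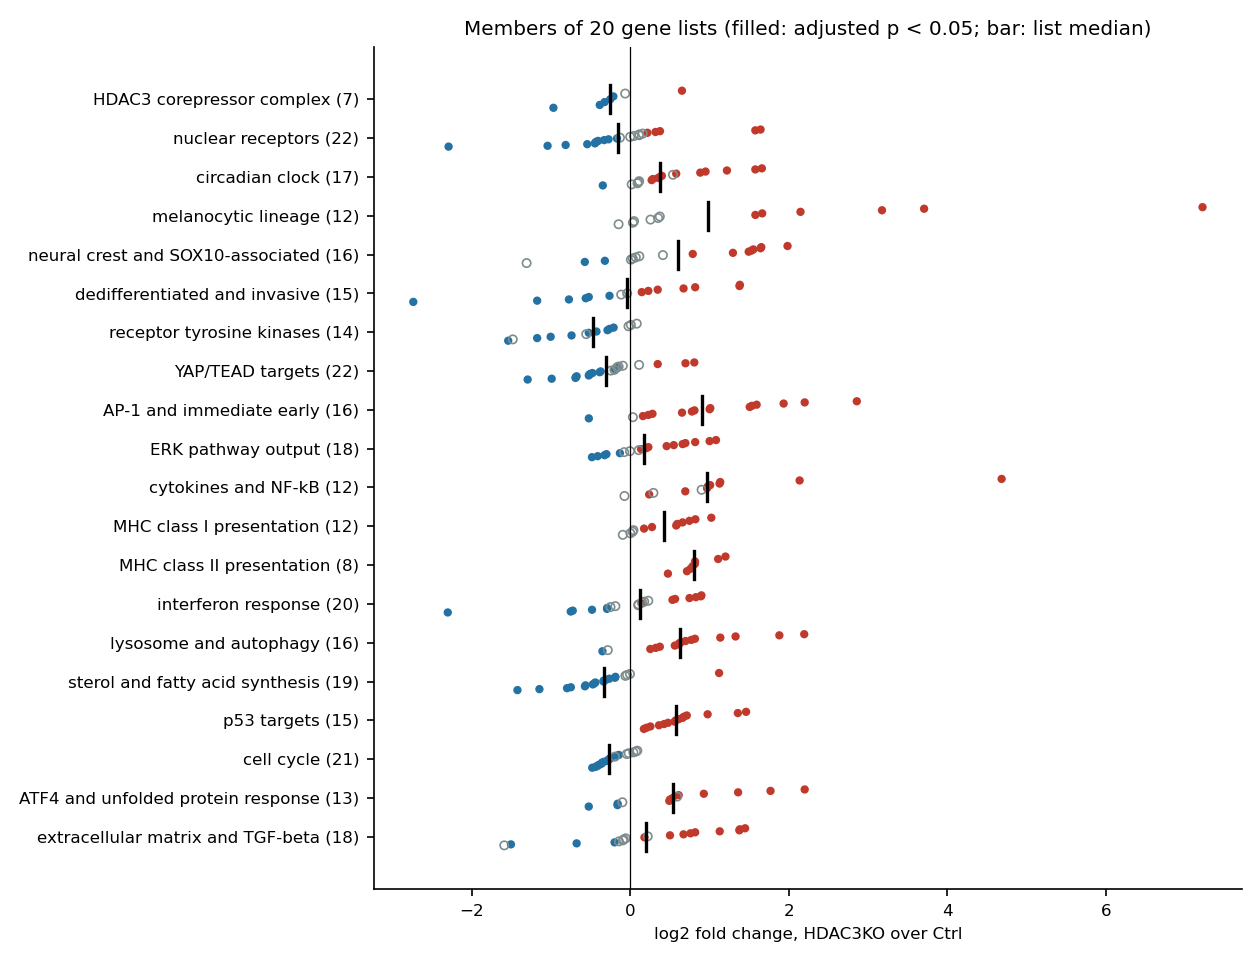
Log2 fold changes, HDAC3 knockout over control, of the tested members of 20 gene lists, with the number tested in brackets. Filled points have an adjusted p under 0.05 (red higher, blue lower), open points do not, and the black bar is the list median. All 15 points of p53 targets and all 8 of MHC class II presentation are filled and lie right of 0, and all filled points of cell cycle (15) and receptor tyrosine kinases (9) lie left of it.

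Targets of p53 rose in every case, 15 of 15 (median 0.57). CDKN1A, the CDK inhibitor p21, was at 344, 357 and 337 CPM in HDAC3 knockout libraries, against 128, 121 and 128 CPM in control libraries (1.46 ± 0.046, adjusted p = 1e-16). The stress cytokine GDF15 (1.36 ± 0.14, adjusted p = 3.2e-08), the kinase PLK3 (0.98 ± 0.077, adjusted p = 6.3e-10) and TIGAR (0.71 ± 0.11, adjusted p = 2.2e-05) followed, and the p53 ubiquitin ligase MDM2 changed by 0.48 ± 0.055, adjusted p = 2.9e-07. Cell cycle genes fell in 15 of 21 cases and rose in none, but by little, with a median of -0.27 and a lowest value of -0.48. That lowest value belonged to MCM7, a subunit of the replicative helicase, at 250.2, 241 and 236 CPM in knockout libraries and 347, 332 and 335 CPM in controls (-0.48 ± 0.041, adjusted p = 2.6e-09). CDC20 (-0.42 ± 0.041), TYMS (-0.40 ± 0.044) and MCM2 (-0.44 ± 0.058) were alike. MKI67 fell by less (-0.17 ± 0.06, adjusted p = 0.027) and lost the call without replicate 2 of HDAC3KO (-0.11, adjusted p = 0.19), without replicate 3 of HDAC3KO (-0.14, adjusted p = 0.12) and without replicate 1 of Ctrl (-0.15, adjusted p = 0.085).

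Of 10 genes for D-type cyclins, their kinases and CDK inhibitors, 2 rose and 3 fell. These counts are not far from the shares over all tested genes, of which 21.2% rose and 20.9% fell. CDKN1C, the inhibitor p57, stood at 5.33, 5.48 and 4.64 CPM in HDAC3 knockout libraries, against 15.6, 14.3 and 14.4 CPM in controls (-1.52 ± 0.095, adjusted p = 1.1e-11), opposite to CDKN1A. CDK6 fell (-0.67 ± 0.051, adjusted p = 4e-10), and CCND1, the main D-type cyclin of melanoma cells, did not pass the test (-0.01 ± 0.038, adjusted p = 0.93).

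Immediate early genes and AP-1 subunits were higher in 14 and lower in 1 of 16 cases (median 0.90). ATF3, a stress-induced factor, was at 17.6, 19.2 and 16.6 CPM in HDAC3 knockout libraries and 3.37, 3.85 and 4.40 CPM in control libraries (2.20 ± 0.088, adjusted p = 5.1e-15). EGR2 (2.86 ± 0.32, adjusted p = 1.3e-07), EGR3 (1.93 ± 0.10, adjusted p = 1.9e-13), the orphan receptors NR4A3 (1.59 ± 0.16) and NR4A1 (1.53 ± 0.067, adjusted p = 2.7e-14) and FOS (1.51 ± 0.14) rose, and JUND fell (-0.52 ± 0.078). Output genes of the ERK pathway, which mutant BRAF drives, were mixed, with 10 higher and 5 lower of 18 (median 0.17). The phosphatase genes DUSP5 (1.08 ± 0.074, adjusted p = 5.9e-11) and DUSP4 (0.82 ± 0.039, adjusted p = 1.3e-13) rose, while SPRY4 (-0.30 ± 0.052) and ETV4 (-0.48 ± 0.051) fell.

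Cytokine and NF-kB genes rose in 9 of 12 cases and fell in none (median 0.97). Beside IL24, the NF-kB inhibitor TNFAIP3 (A20) was at 32.4, 32.4 and 32.9 CPM in HDAC3 knockout libraries, against 6.87, 8.09 and 7.27 CPM in controls (2.14 ± 0.072, adjusted p = 3.3e-16). The chemokines CXCL8 (1.13 ± 0.14, adjusted p = 5.6e-07) and CCL2 (1.13 ± 0.13, adjusted p = 2.8e-07) rose. IL6 was too low to test, with 23 counts over the 3 HDAC3 knockout libraries and 1 over the 3 control libraries. Genes of the ATF4 branch and the unfolded protein response rose in 8 and fell in 3 of 13 cases (median 0.54), with CHAC1 (1.77 ± 0.15, adjusted p = 2.1e-09), DDIT3, the factor CHOP (1.36 ± 0.093, adjusted p = 5.9e-11), and the chaperone cofactor DNAJB9 (0.93 ± 0.10) highest after ATF3. PHGDH, of serine synthesis, fell (-0.52 ± 0.052).

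Antigen presentation genes rose for both MHC classes. All 8 class II genes tested rose (median 0.80). Their coactivator CIITA was at 156, 151 and 144 CPM in HDAC3 knockout libraries, against 97.7, 88.7 and 87.9 CPM in control libraries (0.71 ± 0.062, adjusted p = 2.7e-09), and HLA-DRA was at 988, 1165 and 1152 CPM in knockout libraries and 582, 644 and 651 CPM in controls (0.82 ± 0.056, adjusted p = 5.6e-11). The peptide exchange factor HLA-DMA showed the largest change of the class (1.20 ± 0.052, adjusted p = 2.3e-14). For class I, 8 of 12 rose and none fell (median 0.43), led by HLA-B (1.02 ± 0.045, adjusted p = 2.7e-14), while the class I coactivator NLRC5 did not pass the test (-0.10 ± 0.091, adjusted p = 0.44). HLA genes share long stretches of sequence, so their counts depend on how reads with several matches were treated, as do those of HMGN2, which has pseudogene copies. The interferon response did not move as a block, with 7 higher and 6 lower of 20 (median 0.12). IFIT3 (0.90 ± 0.063, adjusted p = 8.8e-11), OAS1 (0.89 ± 0.08, adjusted p = 5.4e-09) and IFI6 (0.83 ± 0.074) rose, whereas IRF7 (-0.75 ± 0.20, adjusted p = 0.004) and IFI44 (-0.73 ± 0.076) fell, and OASL fell to 16 counts in HDAC3 knockout libraries, against 132 in control libraries.

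Lipid synthesis genes were mostly lower. Of 19 genes of sterol and fatty acid synthesis, 15 fell and 1 rose (median -0.34). FADS2, a desaturase of long-chain fatty acids, was at 10.4, 11.4 and 10.8 CPM in HDAC3 knockout libraries, against 31.1, 27.7 and 28.7 CPM in control libraries (-1.42 ± 0.069, adjusted p = 1.4e-13). All 3 knockout libraries lay below all 3 controls. The sterol enzymes LSS (-0.80 ± 0.062, adjusted p = 4.8e-10) and DHCR7 (-0.75 ± 0.056, adjusted p = 2.2e-10) and the fatty acid elongase ELOVL6 (-0.57 ± 0.049) fell by less. Targets of PPAR receptors rose in 5 and fell in 2 of 11 cases (median 0.12). The fatty acid receptor CD36 changed most (3.97 ± 0.30, adjusted p = 3.6e-10). The lipase inhibitor ANGPTL4 was at 25.4, 26.8 and 24.7 CPM in knockout libraries, against 2.05, 2.28 and 2.64 CPM in controls (3.47 ± 0.10, adjusted p = 4.8e-17). The pyruvate dehydrogenase kinase PDK4 (1.90 ± 0.057, adjusted p = 4.3e-17) and the lipid droplet protein PLIN2 (1.40 ± 0.039, adjusted p = 1.2e-17) rose, and the mitochondrial carrier UCP2 fell (-1.06 ± 0.10, adjusted p = 2e-08). The count of 2 lower members was 1 without replicate 3 of HDAC3KO, replicate 1 of Ctrl or replicate 2 of Ctrl. Of 9 LXR targets 2 rose, among them the cholesterol exporter ABCA1 (1.00 ± 0.057, adjusted p = 2.5e-12), and 4 fell. The share that rose is not far from that over all tested genes, of which 21.2% rose and 20.9% fell.

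Nuclear receptor genes, taken as a family, were more often lower than higher, at 11 lower and 5 higher of 22 (median -0.15). After THRB, NR2F1 (-1.04 ± 0.12, adjusted p = 1.6e-07) and PPARG (-0.82 ± 0.049, adjusted p = 5.3e-12) fell most, and RXRG and NR1D1 rose most. Of 8 retinoic acid targets tested, 4 fell, led by the retinoic acid hydroxylase CYP26B1 (-1.72 ± 0.18, adjusted p = 5.3e-08). NR1D1 (REV-ERB alpha), which represses clock genes through NCOR and HDAC3, was at 40.1, 36.3 and 36.6 CPM in HDAC3 knockout libraries, against 13.1, 12.6 and 12.2 CPM in control libraries (1.58 ± 0.078, adjusted p = 1.8e-13). Its best known target BMAL1 was at 31.1, 30.7 and 31.6 CPM in knockout libraries and 16.1, 15.8 and 16.5 CPM in controls (0.95 ± 0.062, adjusted p = 2.2e-11). Of 17 clock genes, 11 rose and 1 fell (median 0.37), with BHLHE41 (1.66 ± 0.094, adjusted p = 2e-12) and BHLHE40 (1.22 ± 0.058, adjusted p = 1e-13) among the highest and CRY1 as the 1 that fell (-0.35 ± 0.063). CLOCK and PER2 did not pass the test.

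Matrix genes and TGF-beta genes were higher in 9 and lower in 3 of 18 cases (median 0.20). TGFBI was at 568, 565 and 549 CPM in HDAC3 knockout libraries and 206, 204 and 207 CPM in control libraries (1.45 ± 0.045, adjusted p = 7.5e-17), and COL6A3 (1.13 ± 0.10, adjusted p = 4.1e-09) rose, while COL1A1 fell (-1.51 ± 0.16, adjusted p = 7.9e-08). Of the 32 Mediator subunits, 9 rose and 7 fell, none by 2-fold. These counts are not far from the shares over all tested genes, of which 21.2% rose and 20.9% fell. MED23 did not pass the test (0.07 ± 0.058, adjusted p = 0.36). In the Notch pathway 6 of 11 rose and 1 fell (median 0.49), with NOTCH2 (0.87 ± 0.048, adjusted p = 1.3e-12) and HEY1 (0.99 ± 0.07, adjusted p = 1e-10) higher and NOTCH1 lower (-0.57 ± 0.065). Neuronal genes, which HDAC complexes silence outside the nervous system, were lower in 5 and higher in 2 of 14 cases, with VGF (-1.25 ± 0.092, adjusted p = 2.1e-10) and SNAP25 (-1.73 ± 0.22) among those that fell and GAP43 higher (1.39 ± 0.16). Of 7 genes that HDAC inhibitors raise in many cell types, 4 rose and 2 fell, with CLU (-1.22 ± 0.11, adjusted p = 2.6e-09) lower, opposite to the response that gave the list its name.

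In the BMP and ID list 2 of 12 genes rose and 4 fell (median -0.14), with BAMBI, a decoy receptor, higher (1.11 ± 0.05, adjusted p = 4.3e-14) and the ligand BMP7 lower (-1.01 ± 0.15, adjusted p = 8.9e-06). Among 8 Wnt targets 2 rose, DKK1 (0.56 ± 0.053, adjusted p = 1e-08) and NKD1 (0.53 ± 0.19, adjusted p = 0.029), and NKD2 fell. The Wnt counts and that of risen BMP and ID genes are not far from the shares over all tested genes. Of all tested genes 21.2% rose and 20.9% fell. Epithelial keratins KRT8 (-0.93 ± 0.063, adjusted p = 5e-11) and KRT18 (-0.86 ± 0.04, adjusted p = 7.9e-14) fell, with CLDN4 (-0.81 ± 0.10) as the third of 7 epithelial genes, and ESRP1, an epithelial splicing factor, rose (4.26 ± 0.20, adjusted p = 1.2e-13). Of 4 germline genes tested 2 rose, PIWIL2 (1.67 ± 0.48, adjusted p = 0.0072) and the tumour antigen PRAME (0.71 ± 0.041, adjusted p = 3e-12). The counts of these last small lists rest on few genes: without replicate 1 of HDAC3KO the germline count was 1, and the Wnt count of higher members was 1 without replicate 1 or 2 of HDAC3KO or without replicate 2 of Ctrl, while NKD2 lost its call without replicate 3 of HDAC3KO. Mitochondrial mRNAs rose in 8 of 13 cases by at most 0.47 on the log2 scale, and in 4 or 5 cases without replicate 1 of HDAC3KO, replicate 2 of Ctrl or replicate 3 of Ctrl.

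The same knockout was then read in MED23 knockout cells, in libraries that share none with the first comparison. Replicate 1 of MED23KO did deviate from its group mean much as replicate 1 of Ctrl and of HDAC3KO did. MED23 mRNA was at 18.2, 16.8 and 17.5 CPM in dKO libraries and 16.0, 15.3 and 15.6 CPM in MED23KO libraries, against 31.9, 33.4 and 33.4 CPM in control libraries. HDAC3 mRNA was at 34.8, 34.2 and 35.6 CPM in dKO libraries, against 60.1, 61.2 and 57.1 CPM in MED23KO libraries (-0.77 ± 0.05, adjusted p = 3.7e-11). In this background 4038 genes (19.1%) were higher and 3995 (18.9%) lower at an adjusted p under 0.05, of which 626 (2.96%) and 648 (3.07%) also passed the 2-fold minimum. Of the 978 genes 2-fold higher in HDAC3 knockout against control, 333 were 2-fold higher in dKO against MED23KO too, which is 34.0% of the first list and 53.2% of the second. For the lower genes 278 were shared, 36.9% of the first list and 42.9% of the second. Opposite calls at 2-fold were made for 9 and 3 genes. At an adjusted p under 0.05 alone, 53.3% of the higher and 52.1% of the lower genes were called the same way in both backgrounds. By that rule 273 (6.1%) of the higher and 263 (5.96%) of the lower genes had opposite calls. IL24 changed by 4.91 ± 0.06 and TAC1 by 3.49 ± 0.092 in MED23 knockout cells, close to their values in control cells. ATOH8 (-3.01 ± 0.14), BGN (-3.05 ± 0.11) and THRB (-2.04 ± 0.069) fell there as well, and CDKN1A rose (1.23 ± 0.046). DCT had 551 counts over the 3 dKO libraries and 15 over the 3 MED23KO libraries. The summed markers of other cell types were at 49.79 to 51.63 CPM in dKO libraries and 25.35 to 26.64 CPM in MED23KO libraries, and their part in this comparison was not tested.

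**Figure D4:**
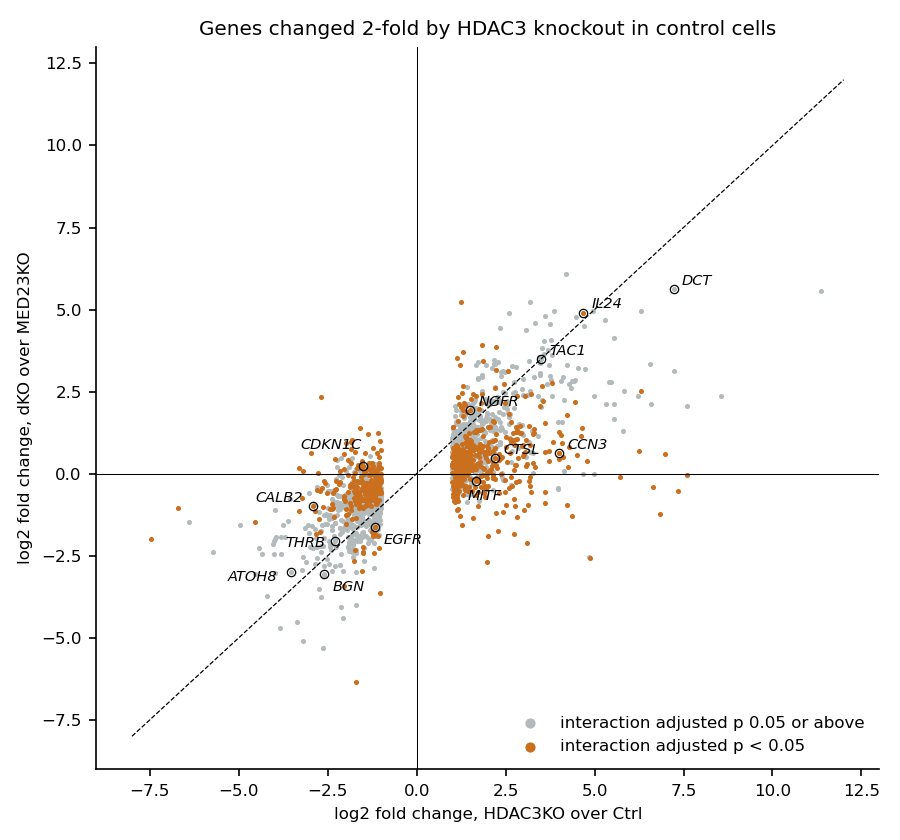
Log2 fold changes of the genes called 2-fold in HDAC3 knockout against control, in control cells (x axis, HDAC3KO over Ctrl) and in MED23 knockout cells (y axis, dKO over MED23KO), with equal change on the dashed line. Orange points have an interaction adjusted p under 0.05. IL24 and TAC1 lie close to the line, while MITF (-0.23 on the y axis), CCN3 (0.62) and CTSL (0.47) lie far below it, and points left of -1 or right of 1 were chosen for their x value.

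The difference between the backgrounds was tested as an interaction, the log2 effect of HDAC3 knockout in MED23 knockout cells minus that in control cells. It was positive for 2115 genes (10.0%) and negative for 2218 (10.5%) at an adjusted p under 0.05. Since the genes 2-fold changed in control cells were picked for that size, a smaller effect elsewhere is partly built in, and of the 978 higher genes 399 had a negative and 32 a positive interaction. MITF was at 49.7, 53.3 and 56.7 CPM in dKO libraries and 60.0, 62.2 and 64.8 CPM in MED23KO libraries, a fall of 0.23 on the log2 scale (adjusted p = 0.0021), and its interaction was -1.89 ± 0.076 (adjusted p = 8.2e-14). PMEL did not pass the test in MED23 knockout cells (0.39 ± 0.23, adjusted p = 0.2, interaction -3.31 ± 0.29), and GPNMB rose by less (0.70 ± 0.042, interaction -1.45 ± 0.059). Lysosome genes behaved alike, with a negative interaction in 14 of 16 members and a median effect of 0.14 in MED23 knockout cells.

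Other genes passed the test in MED23 knockout cells and not in control cells, with an interaction that passed as well. SOX10 was at 411, 396 and 356 CPM in dKO libraries, against 236, 229 and 212 CPM in MED23KO libraries (0.78 ± 0.052, interaction 0.71 ± 0.073, adjusted p = 1.7e-07). ERBB3 (0.86 ± 0.048, interaction 0.85 ± 0.067) and CCND1 (0.86 ± 0.038, interaction 0.87 ± 0.053) showed the same order, and neither had passed the test in control cells. CCND1 in dKO libraries lay above every library of the other 3 groups. For cell cycle genes the interaction was positive in 19 of 21 members and negative in none, with a median effect of 0.08 in MED23 knockout cells and -0.27 in control cells. MHC class II genes rose in both backgrounds, 8 of 8 each, with a median of 1.06 in MED23 knockout cells. YAP and TEAD targets had 11 positive and 4 negative interactions of 22, among them CCN2, which rose in MED23 knockout cells (0.52 ± 0.06) and fell in control cells.

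**Figure D5:**
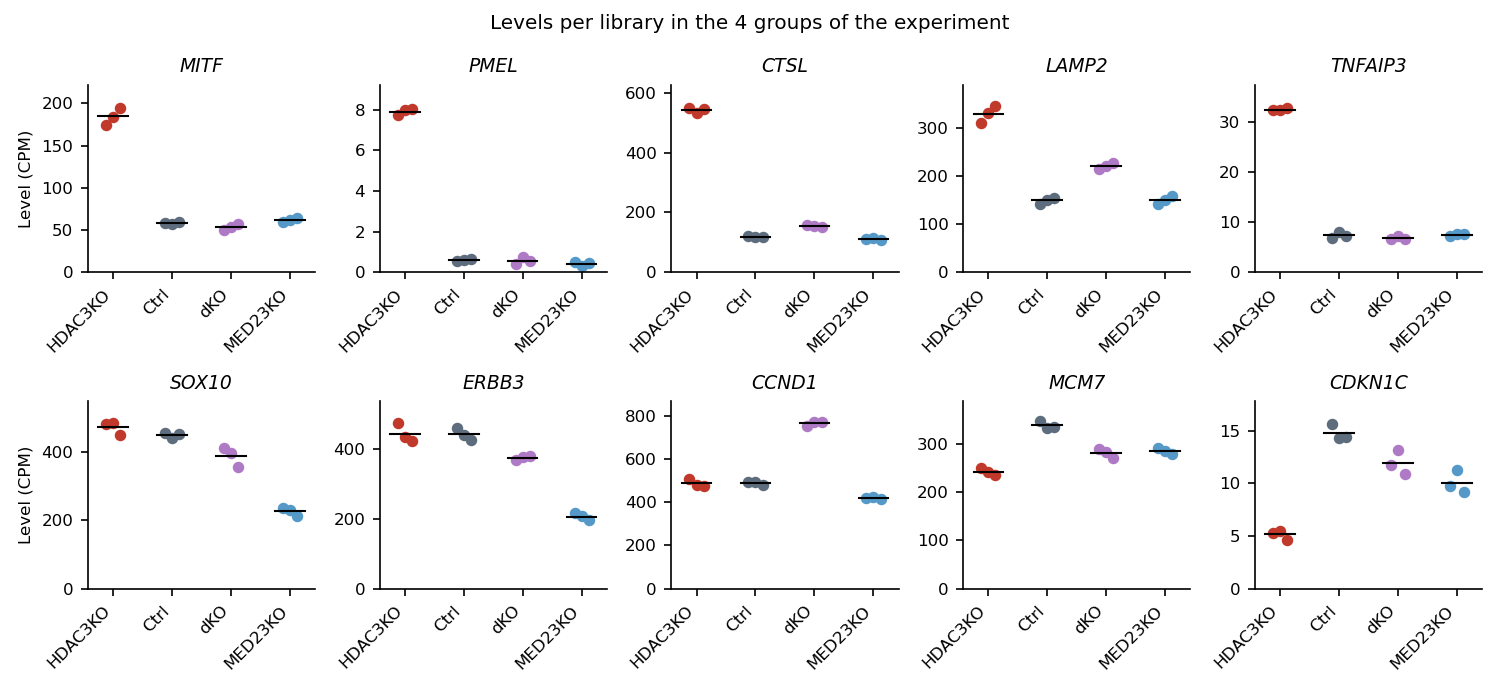
Levels (CPM) of 10 genes in each library of the HDAC3 knockout, control, dKO and MED23KO groups, with group means as black lines. MITF, PMEL, CTSL and TNFAIP3 are high in HDAC3 knockout libraries and close to the other groups in dKO libraries, SOX10 and ERBB3 are apart between dKO and MED23KO libraries and overlap between HDAC3 knockout and control libraries, and CCND1 is highest in dKO libraries.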

How the data were processed

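Poly(A) RNA of A375 cells was made into stranded mRNA-seq libraries (KAPA kit), per the labels' protocols. Reads were processed with bcl2fastq, HISAT2 and HTSeq on hg38, per the submitters' processing notes. Not given in the sources used here are their order, the annotation, the strand setting and the handling of reads with several matches. The authors deposited raw gene counts with no normalization, for 58721 gene rows. Of these, 58676 were in GENCODE 29, from which symbols, positions and gene types were taken.

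The 12 libraries of the experiment held 58839464 to 106185458 counts. They were fitted together in edgeR 4.0.16 (R 4.3.3) by the quasi-likelihood test, with 1 mean per group, TMM scaling and filterByExpr (minimum count 10, minimum total 15), which left 21139 genes. Contrasts were HDAC3KO minus Ctrl, dKO minus MED23KO, and the difference of these effects. The standard error is the absolute log2 fold change over the square root of F. Adjusted p-values (Benjamini-Hochberg) cover all tested genes, and called means under 0.05. For a gene with fewer than 30 counts over a group, counts are given in place of a fold where it is described. The code was tested on simulated data.

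Genes named in the text are HDAC3, NCOR1, SOX10, MITF, EGFR, AXL, NGFR, ERBB3, MLANA, CCND1, CDKN1A, MKI67 and MED23, the 12 highest and 12 lowest changes, the 6 largest CPM increases and decreases past 1.5-fold, up to 5 members for each of 36 lists, and the 6 highest and 6 lowest interactions of genes called at 2-fold. The 12 and the interactions needed a mean log2 CPM of at least 1, at least 30 counts per library of the higher group and no overlap. Some genes the rule names are not reported here. Genes named outside this rule are list members or were chosen after their values were seen. The comparison and the lists were chosen with earlier results of these data known. Promoters were read over 250 bases before each start in RefSeq (GRCh38.p14), and the M-box and E-box were chosen after seeing the data. A promoter comparison of all 2-fold genes is void, since 74.6% of the higher and 72.1% of the lower protein-coding genes have an entry.

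Deviations of same-numbered dKO and MED23KO libraries from their group means correlated at 0.154, 0.129 and 0.333 over 11681 genes. Each was above 0.1, the threshold set for pairing, which the labels do not give. Replicate 1 of dKO correlated more with replicate 2 of MED23KO (0.175), so whether the numbers pair these libraries is unsettled. Same-numbered MED23KO and HDAC3KO libraries, which both enter the interaction, correlated at 0.4, 0.149 and 0.424, also above 0.1. The main fit used no replicate block, and a block was run as an alternative. Alternatives were scaling by DESeq2 1.42.0 size factors, its Wald test, no filter, only the groups compared, a replicate block, each replicate left out, and, added after seeing the data, replicate 1 of HDAC3KO and Ctrl left out together.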

Additional observations from a re-analysis of the deposited data

Results flagged for a closer look

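The effect of HDAC3 knockout differed between MED23 knockout cells (dKO minus MED23KO) and control cells (HDAC3KO minus Ctrl) by at least 2-fold for 38 of the named genes reported here, with an interaction adjusted p under 0.05 in edgeR. Genes were considered where the log2 CPM averaged 1 or more and each group had 30 counts or more over its 3 libraries, so lower genes of the text such as ESRP1 and CAPN3 are not among them. Most of these genes were named for a large change in control cells, so a smaller effect in MED23 knockout cells is partly built into the choice. The interaction, the log2 effect in MED23 knockout cells minus that in control cells, was negative for 24 of them and positive for 14. For 12 genes the effect was called in both backgrounds with opposite signs, and for 5 it was called in control cells and not in MED23 knockout cells.

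Among pigment cell, neural crest and lysosome genes the interaction was -3.31 for PMEL, -1.89 for MITF, -1.45 for GPNMB, -1.02 for SNAI2, -1.75 for CTSK and -1.72 for CTSL. MITF changed by -0.23 in MED23 knockout cells and 1.66 in control cells, with opposite calls, and CTSL changed by 0.47 in MED23 knockout cells and 2.19 in control cells. Among secreted and surface proteins it was -3.56 for SLC7A8, -3.47 for FAP, -3.38 for CCN3, -3.13 for MDGA1, -2.94 for P2RX7, -2.88 for SLAMF7, -2.25 for the chemokine CCL2 and -1.98 for TGFBI. CCL2 changed by -1.12 in MED23 knockout cells and 1.13 in control cells, and TGFBI changed by -0.53 in MED23 knockout cells and 1.45 in control cells.

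Further negative values were -2.26 for TNFAIP3, -2.26 for LINC00520, -1.48 for KAT2B, -1.46 for BHLHE40, -1.25 for HEY1, -1.24 for PDK4, -1.23 for NR2F1, -1.16 for ATF3, -1.16 for IFIT3 and -1.02 for INMT. NR2F1 fell in both, by -2.28 in MED23 knockout cells and -1.04 in control cells, so that its change was larger with MED23 absent.

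Positive values were 2.34 for KRT14, 2.19 for UNC5C, 2.06 for LINC02452, 1.93 for B3GNT7, 1.92 for AJAP1, 1.91 for CALB2, 1.84 for KRT81, 1.77 for CDKN1C, 1.37 for ARHGDIB, 1.11 for FGFR3, 1.11 for CLDN4, 1.09 for TMX4, 1.02 for CDK6 and 1.00 for HIPK2. KRT14 changed by 1.85 in MED23 knockout cells and -0.49 in control cells, and CDKN1C changed by 0.25 in MED23 knockout cells and -1.52 in control cells. Counts of KRT81 may be shared with near-identical keratin genes. Groups of 3 libraries were not tested for a single library far from the others.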

How the results depend on the processing

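The counts of genes past the threshold and the value of HDAC3 mRNA kept their direction, and stayed within 1.5 times their reported size, under every alternative run. For HDAC3 knockout against control, genes higher and lower numbered 4483 and 4395 with only the groups compared, 4455 and 4438 with DESeq2 size factors, 4186 and 4792 without a low-count filter, 4531 and 4517 with the DESeq2 Wald test, and 4005 and 3870 without replicate 1 of both groups, an alternative chosen after seeing the data, which gave 2105 positive and 1984 negative interactions. Leaving out 1 library gave 3983 to 4363 higher and 3878 to 4199 lower genes, and -0.99 to -0.95 for HDAC3. In MED23 knockout cells it gave 3367 to 3857 and 3309 to 3774, and for the interaction 1736 to 2162 positive and 1794 to 2223 negative. A replicate block gave 4855 higher and 4817 lower genes in HDAC3 knockout against control, where same-numbered libraries correlated at 0.56, 0.086 and 0.264 and were not taken as paired. Among dKO and MED23KO libraries the block gave 4463 higher and 4405 lower genes, and for the interaction 2694 positive and 2663 negative, and no named gene lost a call or reversed under it in any of the 3 comparisons. It added a call for 2 named genes in MED23 knockout cells, among them COL6A3 (0.28, adjusted p = 0.028), and for 12 in the interaction, among them CXCL8 (-0.42, adjusted p = 0.0042) and CDH19 (-0.20, adjusted p = 0.0043). Of the alternatives for named genes in HDAC3 knockout against control, 2467 kept the call, 29 lost it and none reversed it. Among the genes that lost it were HDAC10, MT-CYB, NKD1, NKD2, PIWIL2, DLL4, KRT5 and MKI67, and the cause was not tested. Depth limits genes with few counts: 6556 of the tested genes had a mean log2 CPM under 0.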

Other observations

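Gene families named by a shared symbol stem, chosen after their values were seen, gave further values for HDAC3 knockout against control cells. Over all tested genes 21.2% rose and 20.9% fell. These shares depend on level, with 35.04% higher and 27.78% lower among genes above a mean of 6 on the log2 CPM scale. Of 17 matrix metalloproteinases tested, 12 rose and 1 fell (median log2 fold change 0.58, against -0.0001 over all tested genes). Some of these calls rest on few counts, with 22 for MMP9, 29 for MMP12 and 31 for MMP10 over the 3 control libraries. MMP1 (adjusted p = 0.04) and MMP17 (adjusted p = 0.041) passed narrowly. MMP8, the neutrophil collagenase, averaged 105.9 CPM in HDAC3 knockout cells and 16.0 CPM in control cells (log2 fold change 2.73). In MED23 knockout cells 6 of the 17 rose and 4 fell (median -0.13), and the interaction was negative for 6 and positive for none. Of 24 genes whose symbols start with ATP6V or ATP6AP, most of them subunits or accessory proteins of the V-ATPase proton pump, 18 rose and none fell (median 0.41), with a negative interaction for 13.

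Kinesin genes, which encode microtubule motors, fell in 23 of 38 cases and rose in 2 (median -0.27). Nucleoporin genes fell in 13 and rose in 3 of 22 cases (median -0.19), and in MED23 knockout cells 9 rose and 5 fell, with a positive interaction for 14 and a negative one for none. Genes whose symbols start with SEC and a number, many of them for vesicle coats and the translocon, rose in 16 and fell in 2 of 25 cases (median 0.19), and the 2 that fell were the lipid-binding SEC14L1 and SEC14L2 (-0.32 each). Of 20 DUSP phosphatase genes, 10 rose and 3 fell (median 0.33).

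Among the genes nearly absent from control cells, SPINK1 had 5 counts in dKO and 7 in MED23KO libraries, ABCB5 had 9 in dKO and 18 in MED23KO libraries, and ENTHD1 had 4 in dKO and 2 in MED23KO libraries. ATP6V0D2, an osteoclast-type V-ATPase subunit that MITF activates in that cell type, had 263 counts in HDAC3 knockout and 5 in control libraries, and 44 in dKO and 10 in MED23KO libraries. PMP2, a myelin protein, had 132 counts in HDAC3 knockout and 5 in control libraries, and 26 in dKO and 1 in MED23KO libraries.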
